A study of Mus musculus with 2 samples.

Results

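Eicosanoids are lipid mediators that myeloid cells make from arachidonic acid. The 10 genes described here encode enzymes, and an accessory protein, of their synthesis and were taken by name from the deposited expression data of M-MDSC, which list 34745 genes. They are Ptgs1, Ptgs2, Ptges, Hpgds and Tbxas1 of the prostanoid branch, Alox5, Alox5ap, Lta4h and Ltc4s of the leukotriene branch, and the lipoxygenase Alox15. All 10 were listed once. Bone marrow cells of mice were cultured for 7 days with the growth factor GM-CSF alone (CHBP- M-MDSC) or with GM-CSF and cyclic helix B peptide (CHBP+ M-MDSC), a peptide derived from erythropoietin, and sorted as CD11b+Ly6G-Ly6Chigh cells. GM-CSF was thus common to both conditions. As strain, C57BL/6 is written for the CHBP- sample and C57BL/7 for the CHBP+ sample, although both have the same growth protocol with C57/B6 mice. There was 1 library of each condition, with 16484504 counted reads in CHBP- and 16280466 in CHBP+ M-MDSC, and hence no spread between replicates. The treatment and whatever else set these libraries apart cannot be told apart.

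Cyclooxygenases turn arachidonic acid into prostaglandin H2, from which terminal synthases make prostaglandins and thromboxane. In the other branch, 5-lipoxygenase and its activating protein make leukotriene A4, which a hydrolase turns into leukotriene B4, a neutrophil attractant, and a synthase turns into leukotriene C4, the first of the cysteinyl leukotrienes. Prostaglandin E2 is known as a mediator through which MDSCs restrain T cells.

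Genes of the leukotriene branch were the most abundant of the 10 and included the gene with the lowest ratio, Alox5ap, whose CPM (reads scaled to the library total) was lower by 29.6% in CHBP+ M-MDSC. Part of that difference followed a trend with length that ran through all genes. That part was larger for transcript length than for the authors' gene length. Ptgs2 and Hpgds, with far fewer reads, had CPM that were 35.9% and 41.3% higher in CHBP+ M-MDSC. The CPM of Ptgs1, Ptges, Alox15 and Ltc4s differed within counting error. None of the 10 reached the 1.5-fold threshold of the study's methods in either direction.

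Promoters are shown for both cyclooxygenase genes, which encode enzymes of the same reaction at different levels, and for Hpgds, which with Ptgs2 had the highest ratios. They are the 250 bases before the RefSeq start on GRCm38.p6, written in the direction of the gene, with matches to 6 motifs in capitals. The Ptgs1 promoter lies on the plus strand at chr2:36230176-36230425, that of Ptgs2 on the plus strand at chr1:150099781-150100030 and that of Hpgds on the minus strand at chr6:65144731-65144980.
Ptgs1: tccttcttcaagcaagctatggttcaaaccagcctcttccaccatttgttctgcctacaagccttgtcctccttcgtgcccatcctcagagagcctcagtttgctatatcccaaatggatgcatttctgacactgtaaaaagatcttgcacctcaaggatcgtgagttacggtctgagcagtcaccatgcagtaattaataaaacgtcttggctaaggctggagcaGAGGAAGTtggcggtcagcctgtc
Ptgs2: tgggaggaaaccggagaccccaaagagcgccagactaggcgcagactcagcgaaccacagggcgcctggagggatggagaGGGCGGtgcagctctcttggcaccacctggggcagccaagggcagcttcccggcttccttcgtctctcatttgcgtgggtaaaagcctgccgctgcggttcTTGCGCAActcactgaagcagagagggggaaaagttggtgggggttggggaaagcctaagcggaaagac
Hpgds: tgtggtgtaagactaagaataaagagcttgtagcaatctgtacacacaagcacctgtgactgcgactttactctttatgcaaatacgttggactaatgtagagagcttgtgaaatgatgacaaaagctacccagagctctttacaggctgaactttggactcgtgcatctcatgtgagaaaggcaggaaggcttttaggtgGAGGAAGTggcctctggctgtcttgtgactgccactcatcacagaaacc
The motifs, searched on both strands, were TTGCGCAA of C/EBP factors, TGACGT of CREB and ATF factors, the E-box CACGTG, the GC box GGGCGG, GAGGAAGT of the myeloid factor PU.1 and the TATA box TATAAA. The capitals mark GAGGAAGT, whose match begins 24 bases before the start of Ptgs1 and 49 before that of Hpgds, and in Ptgs2 GGGCGG at 170 and TTGCGCAA at 69 bases before the start. Of 32851 promoters in the RefSeq set, 2.44% held GAGGAAGT, 0.164% held TTGCGCAA and 32.7% held GGGCGG. The set held 8 of the 10 genes. Among the other 5 of these, Ptges had GGGCGG at 53 and 42 bases and Alox5 at 35 bases before the start, Tbxas1 had overlapping matches to TATAAA on both strands, at 13 and 11 bases, and no motif matched in Lta4h or Ltc4s. The TATA box was in 12.4% of all promoters, the E-box in 6.02% and TGACGT in 6.47%. The windows follow the RefSeq start, not the span listed in the data. Those of Ptges and Tbxas1 lie inside the listed span of the gene, and those of Hpgds and Ltc4s overlap it. The matches are letters in a window and were not tested for binding.

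The levels of the 10 genes spanned a wide range in both libraries. In deposited FPKM, which scale reads to the authors' gene length and to the library total, Alox5ap had a level of 182.2 and Lta4h of 181.6 in the CHBP- library, with overlapping counting intervals. In CHBP+ M-MDSC, Lta4h had 162.1 and Alox5ap 128.3 FPKM, with intervals apart. Of all listed genes, 217 had a higher FPKM than Alox5ap in the CHBP- library and 289 did in the CHBP+ library.

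Alox5, Alox15, Ptgs1 and Tbxas1 formed the middle of the range, from 11.4 to 30.6 FPKM over both libraries. Alox15 and Ptgs1 could not be told apart by their counting intervals in either library. Ltc4s, Ptgs2, Ptges and Hpgds were the lowest, with at most 4.10 FPKM. Intervals overlapped for Ptgs2 and Ptges in CHBP- M-MDSC and for Ptgs2 and Ltc4s in CHBP+ M-MDSC.

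The FPKM order depended on the gene length. The length behind the deposited FPKM was 10728 bases for Tbxas1, 5.39 times its longest coding transcript of 1990 bases in GENCODE M1, and equal to that transcript for Lta4h, at 2066 bases. For Alox5ap it was 2228 against 852 bases and for Alox5 7407 against 2821 bases. Per kilobase of the longest coding transcript, a scale added after the data were seen, Alox5ap had the highest level of the 10 in both libraries, at 476.5 without and 335.4 with CHBP. On that scale Tbxas1 had 61.5 and 68.5, above Ptgs1 with 45.4 and 45.9. The CPM ratio of a gene between the libraries does not use its length.

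**Figure D1:**
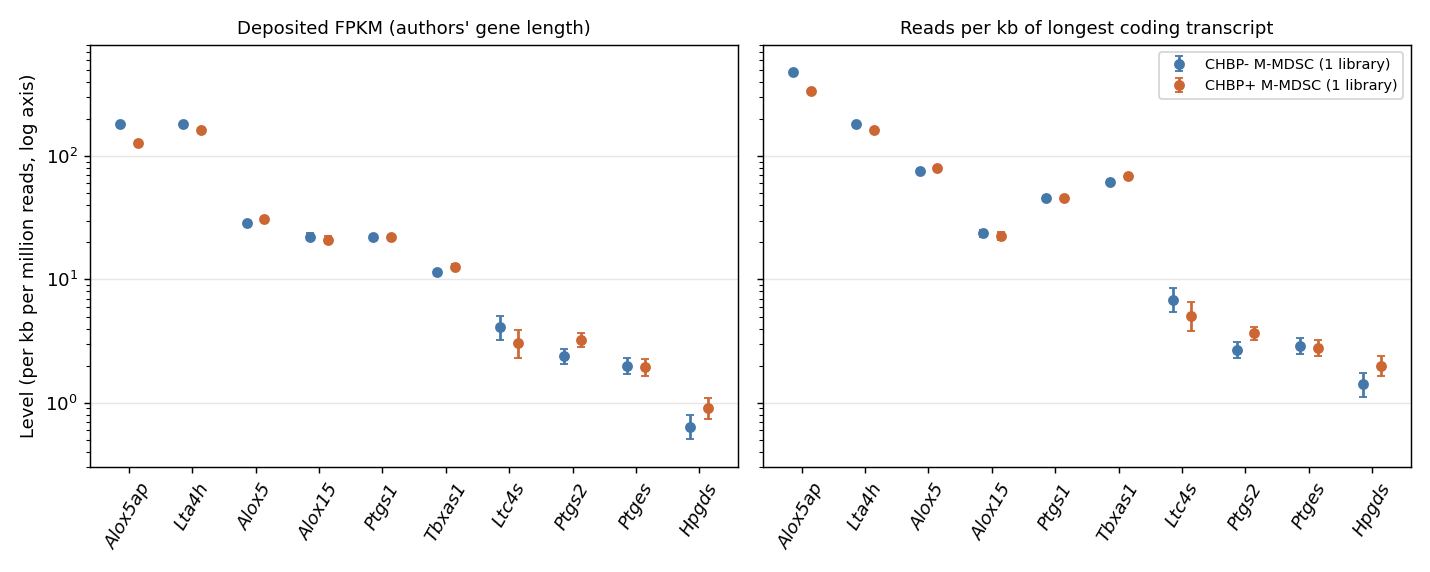
Level of each of the 10 genes on a log axis in CHBP- (blue) and CHBP+ (orange) M-MDSC, as deposited FPKM on the left and per kilobase of the longest coding transcript on the right. Points are 1 library each and bars are 95% Poisson counting intervals. Alox5ap was 182.2 and 128.3 FPKM on the left and 476.5 and 335.4 on the right, and Tbxas1 stood above Ptgs1 only on the right.

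Leukotriene synthesis begins with Alox5 (ENSMUSG00000025701), the 5-lipoxygenase, which the data list on chromosome 6 from 116410077 to 116461178. Without CHBP 3502 reads were counted and with CHBP 3690, which gave 28.7 and 30.6 FPKM. Its CPM ratio was 1.07, with a counting interval from 1.02 to 1.12. The level of Alox5 was thus slightly higher with CHBP, by more than counting error.

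Alox5ap (ENSMUSG00000060063), on chromosome 5 from 149264767 to 149288153, encodes the membrane protein that presents arachidonic acid to 5-lipoxygenase. It had 6692 reads without and 4652 with CHBP, a CPM ratio of 0.704 with an interval from 0.678 to 0.731. The log2 ratio of its FPKM + 1 was -0.50, the lowest of the 10 genes. The counting interval did not reach a 1.5-fold decrease. Gm19719, which overlaps it, had 0 reads in both libraries.

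Lta4h (ENSMUSG00000015889), the leukotriene A4 hydrolase, lies on chromosome 10 from 93453396 to 93484896. Its reads numbered 6184 without and 5451 with CHBP, a CPM ratio of 0.893 with an interval from 0.860 to 0.926. The difference exceeded counting error, but its direction was not stable. The log2 ratio was -0.16 as measured, -0.03 with the trend with transcript length removed and 0.02 with the trend with the authors' gene length removed.

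Ltc4s (ENSMUSG00000020377), the leukotriene C4 synthase, lies on chromosome 11 from 50236469 to 50238616. It had 81 and 59 reads, a CPM ratio of 0.738 whose interval from 0.518 to 1.04 included 1. A difference in Ltc4s was thus not detectable at this depth, although the ratio itself was close to that of Alox5ap. The overlapping Gm26542 had 6 and 3 reads.

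Together the 4 leukotriene genes had 16459 reads without and 13852 with CHBP, a CPM ratio of 0.852 (0.833 to 0.872), to which Alox5ap and Lta4h gave most reads. Ratios between genes of the same library do not depend on the scaling between libraries, but the trend with transcript length is not removed from them. The pairs given here were chosen after their values were seen. In FPKM, Alox5ap exceeded Alox5 by 6.35 times in CHBP- and by 4.19 times in CHBP+ M-MDSC, a ratio of ratios of 0.660 (exact conditional 95% interval 0.621 to 0.700). The ratio of Alox5ap to Lta4h went from 1.00 to 0.791 (0.789, interval 0.748 to 0.831). For Lta4h over Alox5 it went from 6.33 to 5.30 (0.837, interval 0.788 to 0.888). With the trend with transcript length removed, the log2 ratio of Alox5ap was 0.27 below that of Alox5 and 0.12 below that of Lta4h. Single genes scattered around the trend with an SD of 0.248. The spread of differences between genes, which is the like measure here, was not computed.

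Alox15 (ENSMUSG00000018924), on chromosome 11 from 70344152 to 70352031, encodes a lipoxygenase that makes hydroxy fatty acids and is known from macrophages and eosinophils. It had 940 and 882 reads, or 22.2 and 21.1 FPKM. Its CPM ratio of 0.9501 had an interval from 0.866 to 1.04, so that no difference was detectable at this depth.

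Prostanoid synthesis begins with the cyclooxygenases, of which Ptgs1 encodes the form found in many resting cells and Ptgs2 the form induced by inflammatory signals. Ptgs1 (ENSMUSG00000047250), on chromosome 2 from 36230426 to 36252272, had 2148 reads without and 2141 with CHBP, or 21.96 and 22.17 FPKM. Its CPM ratio was 1.01, with a narrow interval from 0.9502 to 1.07 that included 1.

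Ptgs2 (ENSMUSG00000032487), on chromosome 1 from 150100031 to 150108227, had 184 and 247 reads, or 2.38 and 3.23 FPKM. Its CPM ratio was 1.36, with an interval from 1.12 to 1.65, which reaches past the 1.5-fold threshold. The log2 ratio of FPKM + 1 was 0.33, the highest of the genes kept. Ptgs1 exceeded Ptgs2 by 9.24 times in CHBP- and by 6.86 times in CHBP+ M-MDSC in FPKM, a ratio of ratios of 0.743 (0.604 to 0.911). Ptgs1 thus had the higher level per length of both cyclooxygenase genes in both libraries, by a smaller margin with CHBP. The trend with transcript length is not removed from that margin. With the trend removed, the log2 ratio was 0.05 for Ptgs1 and 0.23 for Ptgs2.

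Among the terminal synthases, Ptges (ENSMUSG00000050737), on chromosome 2 from 30889471 to 30929863, encodes the inducible prostaglandin E synthase. It had 173 and 166 reads, a CPM ratio of 0.972 with a wide interval from 0.780 to 1.21. A difference in this gene, whose product makes prostaglandin E2, was not detectable at this depth.

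Hpgds (ENSMUSG00000029919), the haematopoietic prostaglandin D synthase on chromosome 6 from 65117293 to 65144908, had 81 and 113 reads. With 0.639 and 0.902 FPKM it was the 1 gene of the 10 that stayed under 1 FPKM in both libraries and was left out of counts of genes past a fold. Its CPM ratio was 1.41, with an interval from 1.05 to 1.90, on the fewest prostanoid reads.

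Tbxas1 (ENSMUSG00000029925), the thromboxane synthase on chromosome 6 from 38875404 to 39084585, had 2017 and 2220 reads, or 11.4 and 12.7 FPKM. Its CPM ratio was 1.11, with an interval from 1.05 to 1.18. Its span shares 762 bases with that of Hipk2, which had 289 and 807 reads, and how reads there were assigned was not tested. The 5 prostanoid genes together had 4603 and 4887 reads, a CPM ratio of 1.075 (1.03 to 1.12).

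**Figure D2:**
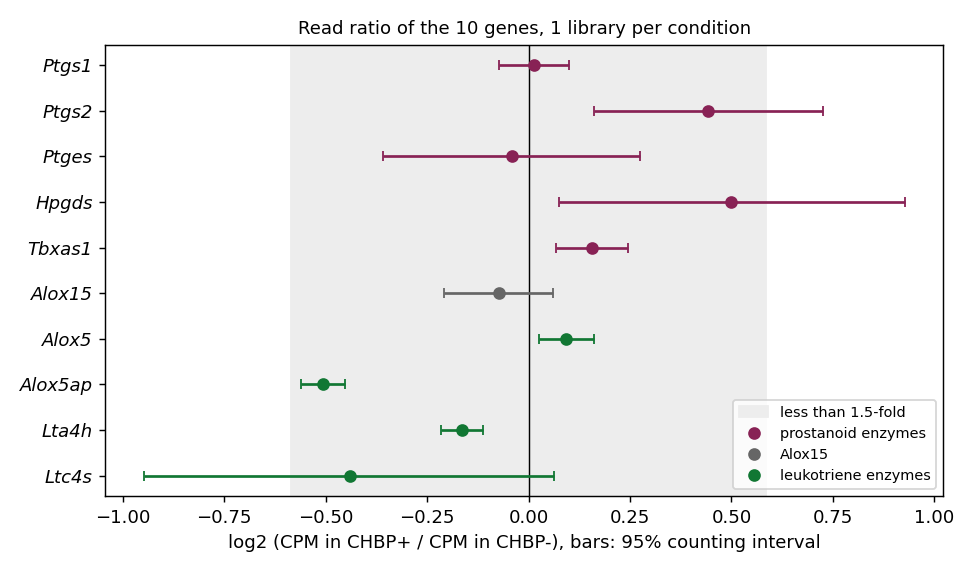
log2 of the CPM ratio of CHBP+ over CHBP- M-MDSC for each of the 10 genes, with 95% Clopper-Pearson counting intervals as bars and the range under 1.5-fold in grey. All points lie within the grey range. Alox5ap (-0.51) and Lta4h (-0.16) lie below 0 with their whole interval, and Ptgs2 (0.44), Hpgds (0.50), Tbxas1 (0.16) and Alox5 (0.09) lie above it.

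Of the 9 genes kept, 4 had a log2 ratio above 0 and 5 below, with a median of -0.03, the same as the -0.03 of all 10948 genes kept. Of those 10948 genes, 46.3% had a log2 ratio above 0. With the trend with transcript length removed, 6 of the 9 were above 0 and 3 below, with a median of 0.05. On the FPKM + 1 scale, 0 of the 9 were at least 1.5-fold higher, as were 3.42% of all genes kept, and 0 were at least 1.5-fold lower, as were 2.89%. The counting interval of the CPM ratio lay above 1 for 4 of the 10 genes and below 1 for 2. Over the 14162 genes with at least 10 reads, these shares were 24.1% and 25.1%. An interval apart from 1 is therefore common in these libraries, and it compares 2 libraries, not the conditions. The width of an interval depends on the number of reads, so the shares are no like measure for genes with more reads.

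Longer transcripts had higher log2 ratios, with Spearman's rho of 0.687 across the 10211 genes kept that had a coding transcript in GENCODE M1, all from the same 2 libraries. Alox5ap and Ltc4s have the shortest of these transcripts among the 10 genes, at 852 and 716 bases, and had the lowest log2 ratios, whereas Ptgs2 has the longest, at 4143 bases, and had the highest of the genes kept. At their lengths the trend ran at -0.36 for Alox5ap, -0.39 for Ltc4s and 0.09 for Ptgs2. With the trend removed, the log2 ratio of Alox5ap was -0.14 in place of -0.50, that of Ltc4s was 0.05 in place of -0.34 and that of Ptgs2 was 0.23 in place of 0.33. Tbxas1 moved the other way, from 0.14 to 0.29, since the trend at 1990 bases ran at -0.15. The SD of genes around the trend was 0.248, and 1 gene of the 9, Tbxas1, lay outside that range, as did 18.9% of all genes with a trend value. The median distance of genes from the trend was 0.114, and 4 of the 9 lay farther than that, Tbxas1, Ptgs2 (0.23), Alox5ap (-0.14) and Alox5 (0.13). With the authors' gene length of 10728 bases in place of the transcript, the log2 ratio of Tbxas1 was 0.02, and its place outside the range rests on which length applies. For Alox5ap, the log2 ratio with the authors' gene length of 2228 bases was -0.33, where the transcript gave -0.14.

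**Figure D3:**
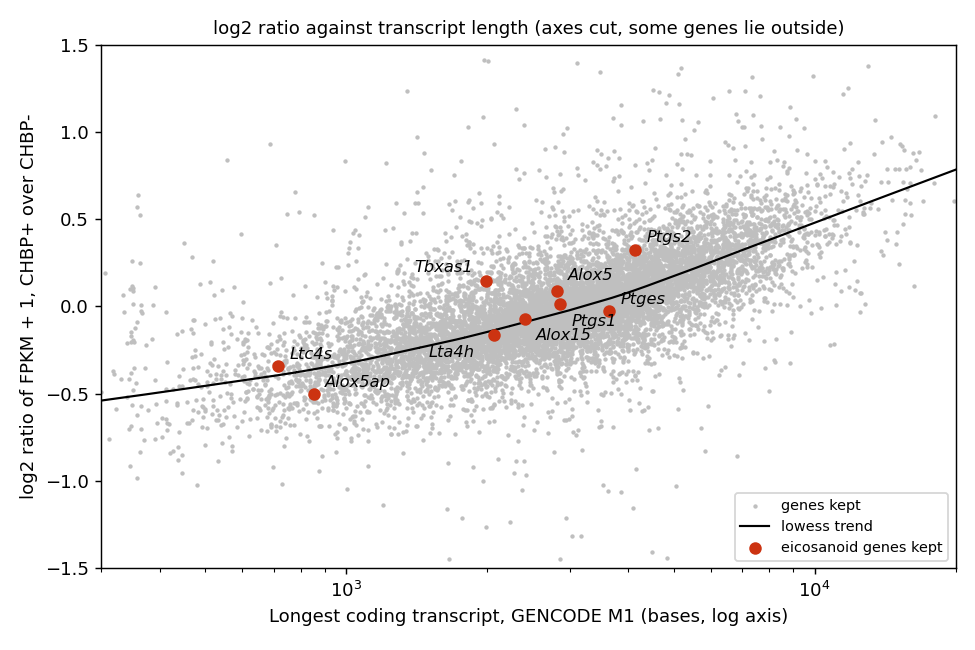
log2 ratio of FPKM + 1 against the longest coding transcript in GENCODE M1, on a log axis, for the genes kept (grey) and the 9 eicosanoid genes among them (red), with the lowess trend in black. The axes leave out 43 of 10211 genes. Alox5ap and Ltc4s lie at the short end, with log2 ratios of -0.14 and 0.05 once the trend is removed, and Tbxas1 lies above the trend.

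The steps before and after the 10 enzymes were described with 50 further genes of the pathway, of which 27 reached 1 FPKM in a library. None of the 27 was at least 1.5-fold higher or lower on the FPKM + 1 scale, and their median log2 ratio was -0.16, or 0.002 with the transcript trend removed. The counting interval lay above 1 for 5 of the 27 and below 1 for 14. The shares of 24.1% and 25.1% were taken over genes with at least 10 reads, not over genes with at least 1 FPKM. Since the width of an interval depends on the number of reads, these shares are no like measure for the 27. The shares among genes kept were not computed. Of 8 phospholipases A2, which release arachidonic acid, 3 were kept. Pla2g4a, the cytosolic form that prefers arachidonic acid, had 1723 and 1964 reads, a CPM ratio of 1.15 (1.08 to 1.23). Pla2g12a had 295 and 215 reads, a ratio of 0.738 (0.616 to 0.883), and Pla2g6 had 193 and 157 reads, a ratio of 0.824 (0.663 to 1.02). Pla2g10 had 0 reads in both libraries, which allows up to 0.182 and 0.184 CPM, the level of 3 reads.

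Of 11 other prostanoid enzymes listed, 8 were kept, 7 of them with a log2 ratio below 0 and 1 above. Of all genes kept, 46.3% were above 0. The median of the 8 was -0.29, or -0.02 with the trend removed, where 3 of the 8 were above 0. The most abundant was Ptgr1, which inactivates prostaglandins and leukotriene B4, with 85.7 and 71.7 FPKM and a CPM ratio of 0.836 (0.794 to 0.880). Ptges3, a prostaglandin E synthase also known as the cochaperone p23, had 42.5 and 33.4 FPKM and a ratio of 0.786 (0.740 to 0.835). Ptges2, a further prostaglandin E synthase, had 2.36 and 2.26 FPKM and a ratio of 0.959 (0.791 to 1.16). The reductases Akr1b3 (0.727, interval 0.635 to 0.833), Cbr1 (0.792, interval 0.686 to 0.915) and Akr1c18 (0.871, interval 0.796 to 0.953) were lower in CHBP+ M-MDSC beyond counting error. So was Fam213b, a prostaglandin F synthase, with a ratio of 0.746 (0.577 to 0.962). Ptgr2 had a ratio of 1.03 (0.953 to 1.12). With the trend removed, the log2 ratio of Akr1c18 was 0.09 in place of -0.20, and that of Ptges2 was 0.11 in place of -0.04. Those of Ptgr1 (-0.15), Ptges3 (-0.19), Akr1b3 (-0.09), Cbr1 (-0.04) and Fam213b (-0.005) stayed below 0.

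Of 13 other leukotriene and lipoxygenase genes, 6 were kept, 5 of them with a log2 ratio below 0 and 1 above, against 46.3% of all genes kept above 0. The median of the 6 was -0.20, or 0.01 with the trend removed, where 4 of the 6 were above 0. Mgst2 and Mgst3 encode microsomal enzymes related to the leukotriene C4 synthase. Mgst2 had 2295 and 1958 reads, a CPM ratio of 0.864 (0.813 to 0.918), and Mgst3 had 188 and 122 reads, a ratio of 0.657 (0.519 to 0.830). With the trend removed, the log2 ratio of Mgst2 was 0.22 in place of -0.20, and that of Mgst3 was -0.24 in place of -0.54. In FPKM, Mgst2 with 26.5 and 22.9 and Mgst3 with 10.4 and 6.83 were both above Ltc4s, which had 4.10 and 3.02.

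The enzymes that trim leukotriene C4 were Ggt5, with 233 and 151 reads and a ratio of 0.656 (0.531 to 0.809), and the dipeptidase Dpep2, with 6017 and 5354 reads and a ratio of 0.901 (0.868 to 0.935). Like Mgst3, Ggt5 passed 1.5-fold in CPM but not on the FPKM + 1 scale, where its log2 ratio was -0.40, and its log2 ratio with the transcript trend removed was -0.49. Cyp4f18, which inactivates leukotriene B4 in neutrophils, had a ratio of 0.869 (0.772 to 0.978). With the transcript trend removed, the log2 ratio of Dpep2 was 0.02 in place of -0.15, and that of Cyp4f18 was 0.002 in place of -0.19. Alox12, the platelet lipoxygenase, had 102 and 111 reads and a ratio of 1.10 (0.834 to 1.46).

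Of 15 receptors, 8 were kept, 5 with a log2 ratio above 0, against 46.3% of all genes kept. The median of the 8 was 0.05, or 0.01 with the trend removed, where 5 of the 8 were again above 0. Ltb4r1, the high-affinity receptor of leukotriene B4, had 68.7 and 55.9 FPKM and a CPM ratio of 0.813 (0.755 to 0.876). Fpr2, a receptor of formyl peptides and lipoxin, had 78.9 and 61.3 FPKM and a ratio of 0.777 (0.732 to 0.823). The cysteinyl leukotriene receptors were higher in CHBP+ M-MDSC, Cysltr1 with 402 and 466 reads and a ratio of 1.17 (1.02 to 1.34), and Cysltr2 with 35 and 56 reads and a ratio of 1.62 (1.04 to 2.55). With the trend removed, the log2 ratio of Cysltr1 was 0.002 in place of 0.19, and that of Cysltr2 was 0.59 in place of 0.42. That of Ltb4r1 was -0.05 in place of -0.29, and that of Fpr2 was -0.06 in place of -0.36.

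For the receptors of prostaglandin E2 that were kept, the interval included 1. The ratios were 0.981 (0.882 to 1.09) for Ptger2, 1.10 (0.912 to 1.34) for Ptger3 and 1.08 (0.908 to 1.27) for Ptger4. Ptgir, the prostacyclin receptor, had 16.1 and 16.3 FPKM and a ratio of 1.02 (0.948 to 1.09). Of 3 transporters, Abcc1, which exports leukotriene C4, had 5295 and 6995 reads and a ratio of 1.34 (1.29 to 1.39), and Abcc4, which exports prostaglandins, had a ratio of 1.19 (1.08 to 1.31). Abcc1 has a transcript of 6792 bases, and its log2 ratio was 0.40, or 0.09 with the trend removed. That of Abcc4 was 0.22, or -0.01 with the trend removed.

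**Figure D4:**
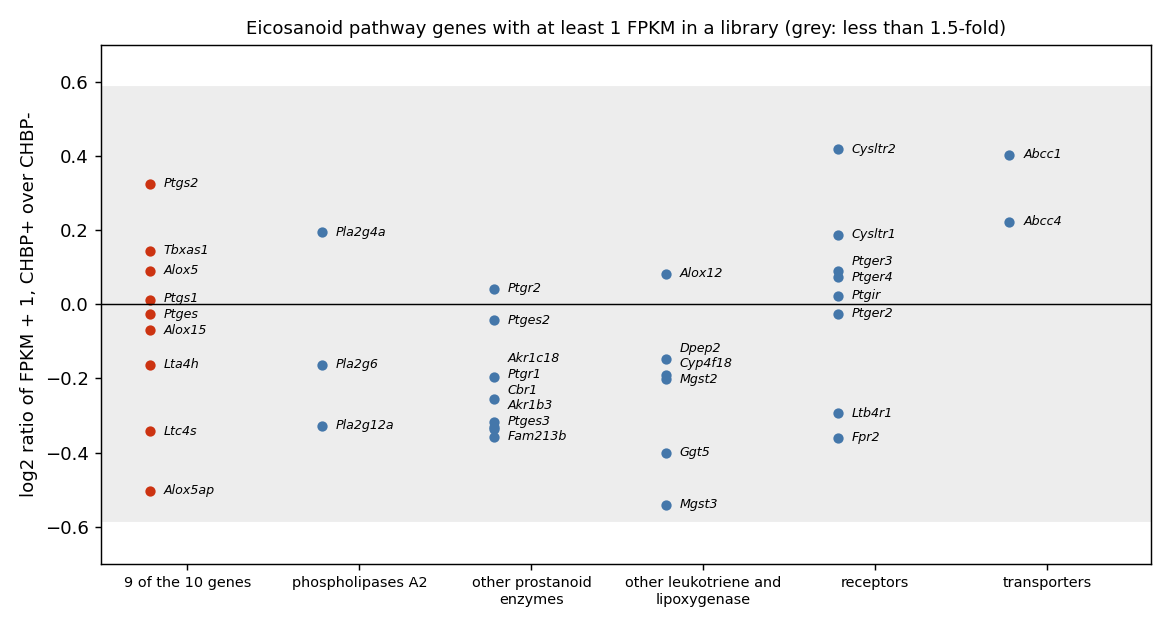
log2 ratio of FPKM + 1 for the 9 eicosanoid genes kept (red) and for 27 further pathway genes with at least 1 FPKM in a library (blue), by list, with the range under 1.5-fold in grey. All points lie within the grey range, from -0.54 for Mgst3 to 0.42 for Cysltr2.

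Several of the 10 genes are known from cells other than monocytes, and markers of such cells had reads in both libraries. In bulk RNA, fewer cells of a type and less RNA per cell cannot be told apart. Of the 10 monocyte and macrophage markers all reached 1 FPKM, and since Itgam was listed under 2 identifiers they made 11 entries. Of these, 6 were higher and 5 lower with CHBP, where 46.3% of all genes kept were higher. Their summed level, both Itgam entries included, was 10572 and 8764 FPKM, of which Lyz2 gave 9756 and 7830. Without Lyz2 the sum was 816.3 and 934.2 FPKM, higher with CHBP. The 2 Itgam entries gave 157.0 and 99.99 FPKM of it in CHBP- and 232.4 and 152.9 FPKM in CHBP+ M-MDSC. The higher sum rests on these entries, since the other markers together were not higher. Itgam had CPM ratios of 1.48 and 1.53, Mrc1 of 1.45, Ccr2 of 1.17, Adgre1 of 1.16 and Csf1r of 1.11. Ly6c2, which encodes an antigen of the sort, had a ratio of 0.597. Ly6c1 (0.786), Lyz2 (0.803), Fcgr1 (0.825) and Cd14 (0.865) were also lower beyond counting error. The counting interval lay above 1 for 6 of the 11 entries and below 1 for 5. Over all genes with at least 10 reads the shares were 24.1% and 25.1%, no like measure for genes with more reads. The median log2 ratio was 0.15. It was 0.006 with the transcript trend removed, for the 10 entries with a transcript length. Of 10 mast cell and basophil markers, cells known for Hpgds and Ltc4s, 6 were kept, and the summed level was 244.0 and 216.9 FPKM. The median log2 ratio of the 6 was -0.09, or 0.06 with the transcript trend removed. Cpa3 (141.4 and 129.6 FPKM) and Mcpt8 (46.1 and 29.9 FPKM) were among the highest, Ms4a2 was higher with CHBP (2.46 and 6.11 FPKM), and Mcpt4 had 0 reads in CHBP- and Tpsab1 0 reads in CHBP+ M-MDSC.

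All 5 markers of eosinophils, cells known for Alox15 and Ltc4s, had lower levels in CHBP+ M-MDSC, 3 of them beyond counting error. Over all genes with at least 10 reads, 25.1% were lower beyond counting error, a share that is no like measure for genes with more reads. The 5 markers had a summed level of 129.6 and 94.3 FPKM, with Prg2 at 107.2 and 77.8 FPKM. Their median log2 ratio was -0.46, or -0.09 with the transcript trend removed. The 6 megakaryocyte and platelet markers, cells known for Tbxas1 and Ptgs1, summed to 389.4 and 331.5 FPKM, with Pf4 at 257.5 and 195.9 and Itgb3 at 3.67 and 12.9 FPKM. The median log2 ratio of these 6 was -0.22, or 0.05 with the transcript trend removed. The 9 neutrophil markers summed to 1485 and 1698 FPKM, of which Mmp8 gave 1290 and 1546. Without Mmp8 the sum was 195.4 and 152.5 FPKM, lower with CHBP, and 6 of the 9 markers were lower. Among them Elane (CPM ratio 0.616), Mpo (0.768) and Ngp (0.863) were lower beyond counting error. The share of all genes with at least 10 reads was 25.1%, with the same limit. The median log2 ratio of the 9 was -0.20, or 0.10 with the transcript trend removed. With it removed, 7 of the 9 were above 0. Ly6g, used to exclude neutrophils in the sort, had 46 and 44 reads. Of 8 dendritic cell markers 6 were kept, with a summed level of 237.0 and 245.9 FPKM. Itgax gave 106.8 and 141.9 and H2-Ab1 104.0 and 81.4 FPKM. Of the 6, 2 had a log2 ratio above 0 and 4 below, with a median of -0.08, or -0.05 with the transcript trend removed. As measured, 46.3% of all genes kept had a log2 ratio above 0. The part of such cells in the levels of the 10 genes was not tested.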

How the data were processed

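RNA of mouse bone marrow cells induced for 7 days and sorted as M-MDSC was sequenced, with 1 library for CHBP- and 1 for CHBP+ M-MDSC, grouped by the treatment in the labels. The authors trimmed reads and removed ribosomal RNA reads. The paper names TopHat2 on mm9 and HT-seq, whereas the submitters' processing notes list HISAT2 2.0.4, Cufflinks 2.1.1 and Cuffdiff with mm10 (GRCm38), so how the deposited counts were made could not be settled. Strand and multi-mapping settings were not given in the sources used here. The deposited counts are raw reads per gene. The deposited FPKM are those counts divided by the authors by a gene length and by the library total, and the gene length was recovered from the ratio of both.

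The log2 ratio was log2((FPKM in CHBP+ + 1)/(FPKM in CHBP- + 1)), and genes with at least 1 FPKM in a library were kept for counts of genes past 1.5-fold, the threshold of the methods. The methods name DESeq, but 1 library per condition leaves no spread between replicates, so no P value was computed. Intervals are 95% exact Clopper-Pearson intervals for ratios of reads, exact conditional intervals for ratios between genes and exact Poisson intervals for levels. All cover counting error only, since reads are not independent molecules. The share of all genes whose interval lay on either side of 1 was taken over genes with at least 10 reads in the libraries together. Transcript lengths came from GENCODE M1 by gene identifier, and trends with length were removed by lowess with a span of 0.3. Promoters came from RefSeq (GRCm38.p6). Scripts were tested on simulated data.

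The 10 genes, the pathway and marker lists and the alternatives were chosen with earlier results of these data known. All 10 genes are named, and pathway genes are named where they reached 1 FPKM in a library, apart from Pla2g10, which is named for its 0 reads. No gene was named for a pattern like that of another, since 2 libraries give 1 ratio per gene. Protein identities were planned but not computed, because no protein table was at hand. Alternatives were a pseudocount of 0.1, CPM, no minimum or a minimum of 5 FPKM, a median of 0, trimmed mean of M values, a fold of 2 and removal of the trend with gene length. A trend with transcript length and levels per transcript length were added after the data were seen. Scaling factors came from edgeR 4.0.16 under R 4.3.3. All else was run in Python 3.11.15 with pandas 2.3.3, numpy 2.4.6, scipy 1.17.1, statsmodels 0.14.6 and matplotlib 3.10.9.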

Additional observations from a re-analysis of the deposited data

How the results depend on the processing

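The count of eicosanoid genes at least 1.5-fold higher or lower was 0 under each of the 9 alternatives. Over all genes kept, 374 were higher and 316 lower by 1.5-fold or more. A pseudocount of 0.1 gave 665 and 571, a minimum of 5 FPKM, which leaves fewer genes, gave 218 and 209, and a threshold of 2-fold gave 85 and 46. With CPM, 609 were higher. With the trend with gene length removed, 157 were lower, and removal of the trend with transcript length, which was added once the data had been seen, gave 209 higher and 93 lower. Both removals took the share of higher genes among those past 1.5-fold from 54.2% to 69.2%, and the cause of the trend was not tested.

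Lta4h changed sign, to 0.021, with the trend with gene length removed, and Alox15 went from -0.07 to 0.07 there and to 0.02 with the trend with transcript length removed. Among genes whose counting interval includes 1, as that of Alox15 does, Ltc4s also changed sign, to 0.05 with the latter trend removed, and Ptges with the median set to 0. Across the alternatives the log2 ratio of Alox5ap ran from -0.51 to -0.14, that of Ltc4s from -0.43 to 0.05, that of Ptgs2 from 0.23 to 0.43 and that of Tbxas1 from 0.02 to 0.29. With the median set to 0 or with trimmed mean of M values, all 10 log2 ratios stayed within their counting intervals. No replicate could be left out, since each condition has 1 library, and depth limits Ltc4s, Ptges, Ptgs2 and Hpgds, with at most 247 reads in a library.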
